A study of Mus musculus with 6 samples.

Results

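Collagen genes were examined in medulloblastomas of mice, which arise in the cerebellum, labelled as knockout or wild type for the histone acetyltransferase gene Crebbp. All genes with a single platform symbol made of Col, a type number, the letter a and a chain number were taken, which gave 44 collagen genes among the 22180 genes measured. They comprised 11 fibrillar collagens, 8 basement membrane collagens and 25 others. For each gene the feature with the highest mean over the 6 arrays was used.

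Total RNA of 3 knockout tumours (Math1Cre::CrebbpFl/FlSmoM2Fl/+) and 3 wild type tumours (Math1Cre::SmoM2Fl/+) was hybridised to Affymetrix arrays, 1 array per tumour. All mice, of both groups, carried SmoM2, a constantly signalling Smoothened, the protein that passes on Sonic hedgehog signals, and received 1 mg tamoxifen at postnatal day 5 to activate the Math1-driven Cre. The protocol gives collection at postnatal day 60 from animals with clear tumour growth, while the age label gives postnatal day 5. Math1 is active in granule neuron progenitors, so vessels, meninges and other stroma in the same tissue lie outside the lineage that this Cre marks. Separate animals or litters are not named in the labels, and the p-values therefore describe the scatter among these 6 samples, which may be technical.

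Collagens are extracellular proteins whose chains wind into a triple helix. Fibrillar collagens form the cables of connective tissue, type IV collagen forms the sheet-like network of basement membranes, and the others decorate fibrils, form filaments or span the cell membrane. In brain, fibrillar collagens are found mainly in the meninges and around larger vessels, and type IV collagen in the basement membrane of capillaries. Bulk tumour RNA holds all these cells, and a lower number of cells of a type cannot be told apart from less RNA per cell.

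Several type IV genes lie head to head, and promoter windows are shown for Col4a1 with Col4a2 and for Col4a5 with Col4a6. These pairs were picked after their changes were seen, and the windows of Col4a3 with Col4a4 are not shown. Whether the layout of the windows bears on expression was not tested. The windows are RefSeq sequences of build GRCm38.p6, with 250 bases before and 50 after the annotated start. The windows of Col4a1 and Col4a2, whose starts are 21 bases apart on opposite strands of chromosome 8, share 78 bases (chr8:11312777-11312854, printed on the + strand, the strand of Col4a2). Those of Col4a5 (+ strand, chrX:141475169-141475468) and Col4a6 (- strand, chrX:141474027-141474326) have starts 1343 bases apart and do not overlap. Capitals mark matches to CCAAT or to GGGCGG, the GC box, on either strand.
Col4a1 and Col4a2 shared: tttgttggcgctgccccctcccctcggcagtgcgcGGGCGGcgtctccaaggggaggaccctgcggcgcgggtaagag
Col4a5: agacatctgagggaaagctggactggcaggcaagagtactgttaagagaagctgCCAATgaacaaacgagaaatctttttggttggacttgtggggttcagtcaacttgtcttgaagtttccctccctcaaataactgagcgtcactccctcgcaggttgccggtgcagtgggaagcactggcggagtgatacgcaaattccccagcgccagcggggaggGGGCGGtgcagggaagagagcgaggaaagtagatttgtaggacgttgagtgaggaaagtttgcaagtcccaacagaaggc
Col4a6: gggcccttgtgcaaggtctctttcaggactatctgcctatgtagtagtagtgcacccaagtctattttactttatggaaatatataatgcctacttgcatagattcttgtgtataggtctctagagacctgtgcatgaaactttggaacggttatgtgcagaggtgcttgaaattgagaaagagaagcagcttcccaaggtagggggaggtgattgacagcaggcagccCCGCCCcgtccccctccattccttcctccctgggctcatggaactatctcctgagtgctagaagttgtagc

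Among the 44 collagen genes, 35 had a window in this table, with 38 windows in all. The GC box GGGCGG was found on either strand in 60.5% of the collagen windows, against 35.7% of all 32851 windows. CCAAT was found in 34.2% of collagen windows and 37.4% of all windows, and the TATA box TATAAA in 13.2% and 13.6%. The full cAMP response element TGACGTCA, a binding site of CREB factors, occurred in 1 collagen window, that of Col24a1, and in 1.79% of all windows. The GLI motif GACCACCCA occurred in 0 collagen windows and in 0.253% of all windows. Overlap between motifs was allowed. These are matches of letters in short windows, not mapped binding sites.

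The targeted gene, Crebbp (chromosome 16), had log2 levels of 11.24, 11.34 and 11.20 in knockout tumours, against 11.80, 11.76 and 11.70 in wild type tumours. Every knockout value lay below every wild type value, with a limma adjusted p of 0.0948. The mean signal in knockout tumours was still 0.709 of that in wild type tumours, so the array signal does not show loss of the gene, and the labels do not name the deleted exons. Transcripts of the X-linked Xist and the Y-linked Kdm5d, Eif2s3y and Uty separated the groups completely, with Xist at 12.26 to 12.45 in knockout and 5.13 to 5.74 in wild type tumours. Sex and genotype therefore cannot be told apart in any comparison below. Markers of granule neuron progenitors and Sonic hedgehog tumours were high in all arrays, with a mean log2 level over 11 genes of 10.47 to 10.62 in knockout and 10.71 to 11.01 in wild type tumours, and 7 of them were lower and 1 higher in knockout tumours at an unadjusted p under 0.05 (72.7% of the 11, against 13.8% of all genes).

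The question was how collagen expression differs between the Crebbp knockout and wild type tumours. A single collagen gene passed an adjusted p of 0.05 (limma over all 22180 genes), Col5a2, which rose in knockout tumours. The share of all genes past this threshold was 0.207%, with 0.126% higher and 0.0812% lower in knockout tumours. At an unadjusted p under 0.05, 6 collagens were higher and 3 lower in knockout tumours, 20.5% of the 44, while over all genes 13.8% reached this mark, 7.24% higher and 6.51% lower. Groups did not overlap for 9 collagens, 4 higher and 5 lower in knockout tumours, against 19.6% of all genes (10.2% higher, 9.43% lower). The 9 collagens are 20.5% of the 44, close to the share over all genes.

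The median log2 change, knockout minus wild type throughout, was 0.05 over the 11 fibrillar collagens, 0.13 over the 8 basement membrane collagens and -0.04 over the 25 others, against 0.0039 over all genes. Over all 44 it was -0.0045, with 21 positive and 23 negative changes between -0.78 and 1.11. The collagens as a whole thus had a median close to that of all genes. The larger changes, in both directions, belonged to a minority of genes, which included partner chains of type IV collagen.

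**Figure D1:**
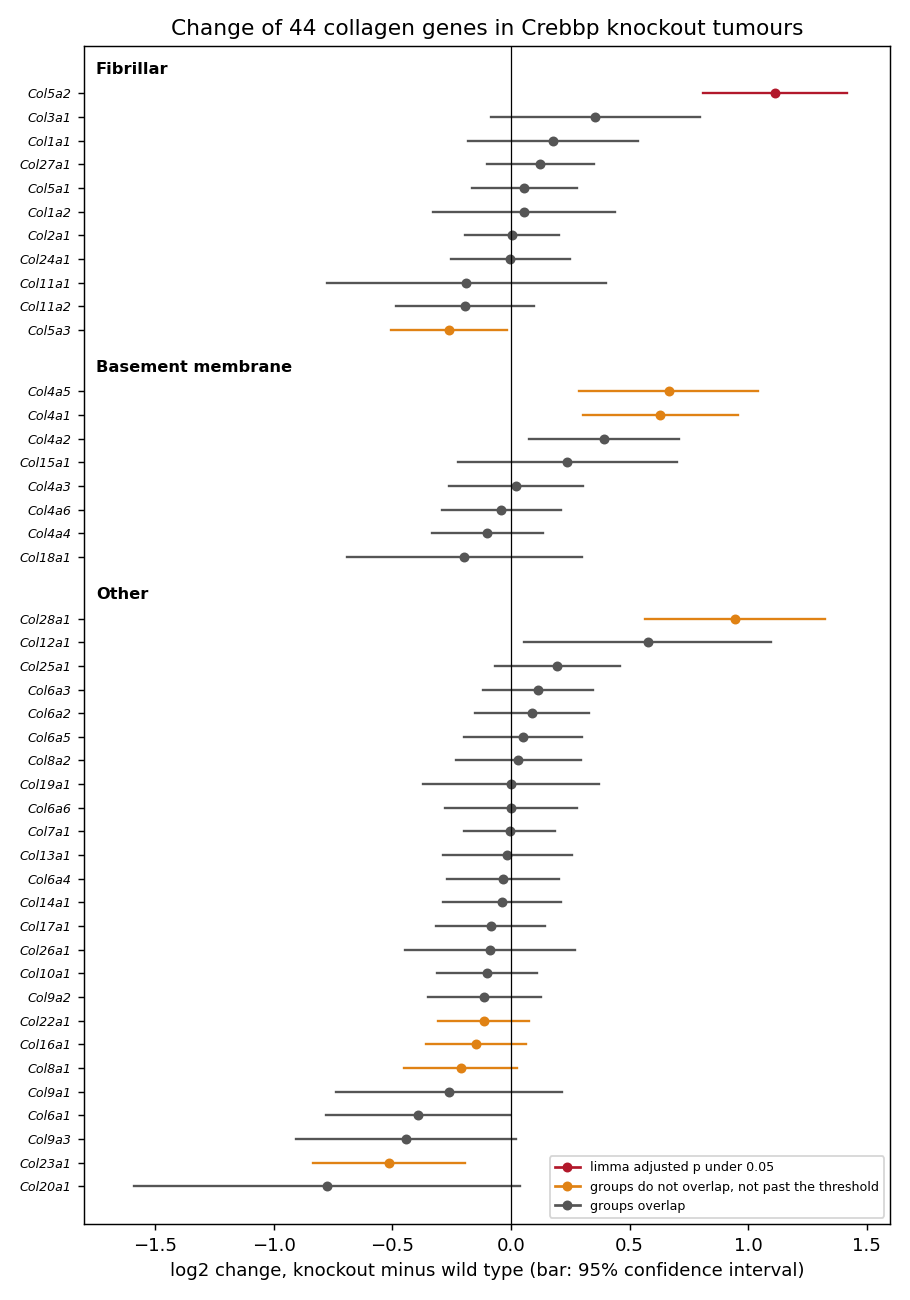
Log2 change of each of the 44 collagen genes (knockout minus wild type, x axis) with its 95% confidence interval from limma, grouped as fibrillar, basement membrane and other and sorted within each group. Col5a2, in red at 1.11, is the gene past the adjusted threshold; orange marks the other 8 genes whose groups do not overlap.

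Most collagens were expressed at modest signal. Group means ran from 5.47 to 9.42 on the log2 scale, and 25 of the 44 genes lay below the median gene, at 7.42. For Col10a1, the hypertrophic cartilage collagen, both group means (5.47 in knockout and 5.57 in wild type tumours) lay within the range of Xist in wild type tumours and of Y-linked genes in knockout tumours (4.31 to 5.74), so no expression above background was shown for it. The deposited values carry no detection calls. RMA compresses the changes of dim genes, which bears on the many collagens near 6 to 7.

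Among fibrillar collagens, Col5a2 encodes a chain of type V collagen, a minor component that starts the assembly of type I fibrils. Col5a2 (feature 17222719, chromosome 1) had log2 levels of 8.19, 7.76 and 7.98 in knockout tumours, against 6.98, 6.89 and 6.73 in wild type tumours. The lowest knockout tumour lay well above the highest wild type tumour. The means were 7.98 ± 0.22 in knockout and 6.86 ± 0.13 in wild type tumours (SD, n = 3 each), a 2.16-fold higher level in knockout tumours on this scale. The log2 change was 1.11 (SE 0.13, 95% confidence interval 0.81 to 1.42, limma adjusted p = 0.0275). Permuting the 6 arrays exactly, two-sided, gave p = 0.1, and 3 arrays a group can give no smaller value.

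Leaving out each tumour in turn gave Col5a2 changes between 1.01 and 1.22, but the call depended on which tumour was left out. It held without knockout replicate 2 (limma adjusted p = 0.0209) and without wild type replicate 3 (0.0462). It was lost in the other cases, where the limma adjusted p was 0.0659 without knockout replicate 1, 0.137 without knockout replicate 3, 0.103 with wild type replicate 1 left out and 0.106 with wild type replicate 2 left out. Over all 41345 features of the array, unnamed ones included, the adjusted p of Col5a2 was 0.0731, and 0 collagen features passed.

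The other chains of type V collagen did not show the change of Col5a2. Col5a1, the chain that partners Col5a2 in the common form of type V collagen, had log2 levels of 7.45, 7.44 and 7.50 in knockout tumours and 7.27, 7.51 and 7.45 in wild type tumours. The groups overlapped, and the log2 change was 0.06 (95% confidence interval -0.17 to 0.28, limma adjusted p = 0.847). Col5a3, a chain of a rarer form, had levels of 7.61, 7.85 and 7.73 in knockout tumours and 7.85, 8.04 and 8.07 in wild type tumours. All knockout values of Col5a3 lay below all wild type values, by a narrow margin, with a log2 change of -0.26 (SE 0.11, limma adjusted p = 0.335).

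The difference between chains was taken within each array. The level of Col5a2 minus that of Col5a1 lay between 0.32 and 0.74 in knockout tumours and between -0.72 and -0.30 in wild type tumours, so the changes of these chains differed by 1.06 on the log2 scale with no overlap. The change of Col5a2 exceeded that of Col5a3 by 1.38 and that of its chromosomal neighbour Col3a1 by 0.76, again with no overlap. In each of these comparisons the exact permutation p was 0.1, the smallest possible, and 0.117 after Benjamini-Hochberg adjustment over the 7 chain pairs examined. The difference of Col5a2 between the groups of these same arrays enters each comparison, so they are no separate support for its call.

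Col3a1, which encodes the homotrimeric type III collagen of vessel walls and lies next to Col5a2 on chromosome 1, had log2 levels of 9.08, 8.44 and 8.40 in knockout tumours and 8.10, 8.30 and 8.45 in wild type tumours. Knockout replicate 1 was the highest array, and the other knockout arrays lay among the wild type ones. Its log2 change was 0.35 (SE 0.19, limma adjusted p = 0.462). Col1a1 and Col1a2 encode type I collagen, the main fibril protein of connective tissue. Col1a1 had levels of 8.37, 7.90 and 8.08 in knockout tumours and 7.74, 7.91 and 8.17 in wild type tumours, with a log2 change of 0.18 (95% confidence interval -0.18 to 0.54). Col1a2 had levels of 8.05, 7.49 and 7.67 in knockout tumours and 7.53, 7.61 and 7.91 in wild type tumours, with a log2 change of 0.05 (95% confidence interval -0.33 to 0.44). For Col1a1, Col1a2 and Col3a1, knockout replicate 1 held the highest value of all 6 arrays.

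The remaining fibrillar genes were Col2a1 and Col11a1, which encode chains of cartilage fibrils, Col11a2, and the minor fibrillar collagens Col24a1 and Col27a1. Their groups overlapped in each case, with log2 changes from -0.19 for Col11a1 and Col11a2 to 0.12 for Col27a1. Col11a1 varied most between tumours of a group, with 7.99, 8.74 and 8.69 in knockout and 8.73, 9.03 and 8.23 in wild type tumours.

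**Figure D2:**
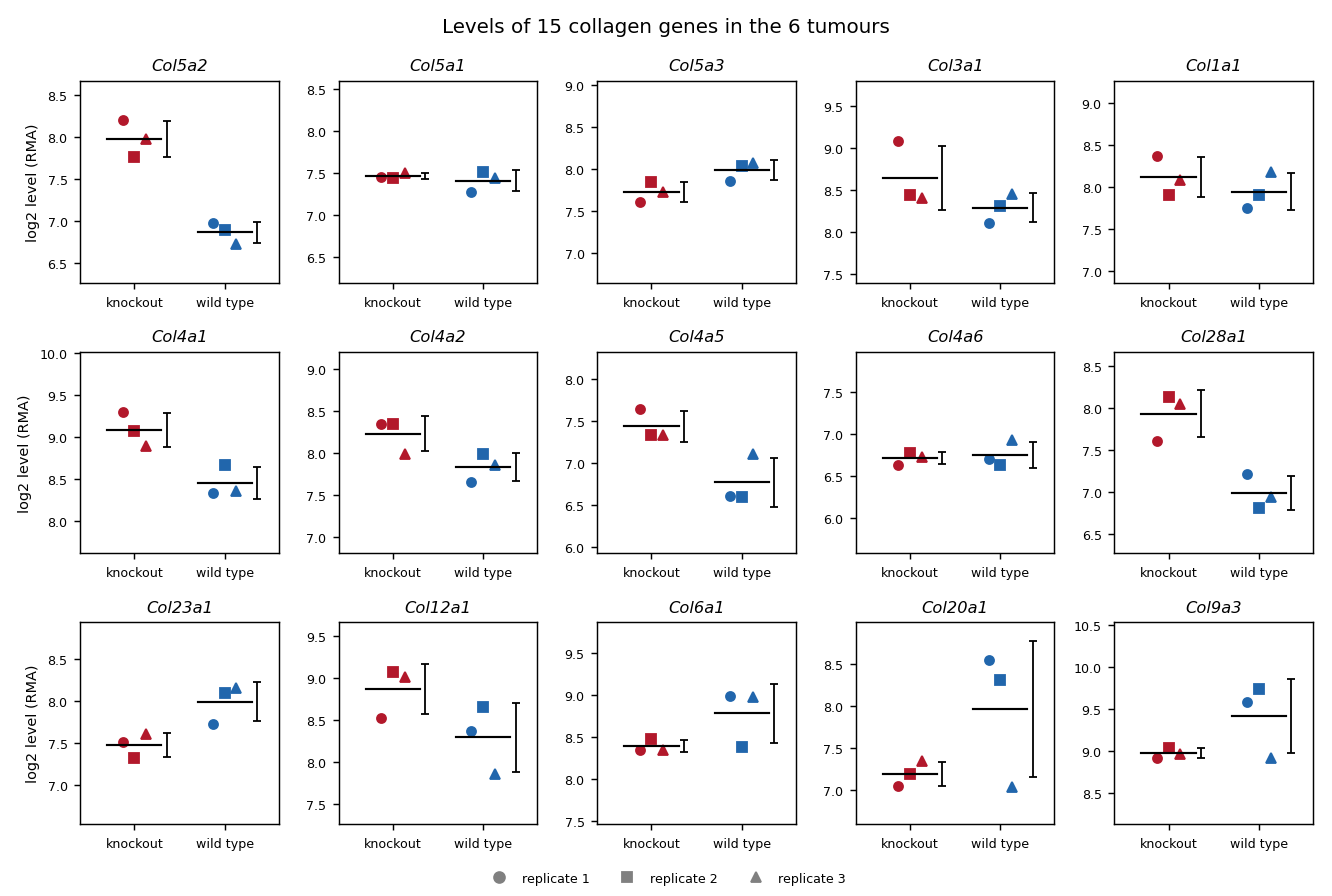
Log2 level (RMA, y axis, the same span of 2.4 in each panel) of 15 collagen genes in the 3 knockout and 3 wild type tumours. Symbols mark the replicates, black lines the means and bars the SD; Col5a2 and Col28a1 separate by the widest gaps, while wild type replicate 3 stands apart from the other wild type tumours in Col20a1 and Col9a3.

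Basement membrane collagens had positive changes in 5 of 8 genes, with 0 past the adjusted threshold and 3 at an unadjusted p under 0.05, each higher in knockout tumours. These are 37.5% of the 8, against 7.24% of all genes higher at this mark. Those were Col4a1, Col4a2 and Col4a5. Col4a1 and Col4a2 encode the chains of the type IV network found in nearly all basement membranes. Col4a1 had log2 levels of 9.30, 9.07 and 8.89 in knockout tumours, against 8.33, 8.67 and 8.36 in wild type tumours, with no overlap. Its log2 change was 0.63 (SE 0.14, 95% confidence interval 0.30 to 0.96, limma adjusted p = 0.148). Col4a2 had levels of 8.35, 8.34 and 7.98 in knockout tumours and 7.65, 7.99 and 7.86 in wild type tumours. Knockout replicate 3 lay at the level of wild type replicate 2, and the log2 change was 0.39 (SE 0.14, limma adjusted p = 0.282). In both genes knockout replicate 3 was the lowest knockout array and wild type replicate 2 the highest wild type array. The level of Col4a1 minus that of Col4a2 lay between 0.72 and 0.95 in knockout tumours and between 0.50 and 0.69 in wild type tumours, a difference of 0.24 between their changes with no overlap (exact permutation p = 0.1, adjusted p = 0.117 over the 7 pairs).

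Col4a5, an X-linked chain of specialised basement membranes such as that of the kidney filter, had log2 levels of 7.65, 7.33 and 7.34 in knockout tumours, against 6.61, 6.60 and 7.11 in wild type tumours. The groups did not overlap, with wild type replicate 3 closest to the knockout tumours, and the log2 change was 0.66 (SE 0.16, 95% confidence interval 0.29 to 1.04, limma adjusted p = 0.175). Its divergent neighbour Col4a6 had levels of 6.63, 6.77 and 6.72 in knockout tumours and 6.69, 6.62 and 6.92 in wild type tumours, with a log2 change of -0.04 (SE 0.11). The difference between the 2 changes was 0.70, without overlap of the within-array differences (exact permutation p = 0.1, adjusted p = 0.117 over the 7 pairs). The groups differ in the number of X chromosomes that the sex-linked transcripts show, and the part of this in the Col4a5 result cannot be told apart from genotype.

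Col4a3 and Col4a4, the other divergent type IV pair, on chromosome 1, encode chains that combine with that of Col4a5. Col4a3 had log2 levels of 6.42, 6.56 and 6.63 in knockout and 6.48, 6.34 and 6.72 in wild type tumours. Col4a4 had levels of 6.49, 6.65 and 6.68 in knockout and 6.73, 6.59 and 6.81 in wild type tumours. Both were dim and their groups overlapped, with log2 changes of 0.02 and -0.10. Col15a1 and Col18a1, proteoglycan collagens of the basement membrane zone, had log2 changes of 0.24 (SE 0.20) and -0.20 (SE 0.21), and in both the values of wild type tumours spread widely, from 6.84 to 7.65 and from 7.06 to 7.83.

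Among the other collagens, Col28a1 had the largest difference between the groups. It encodes a collagen with von Willebrand factor A domains that is known in mouse from peripheral nerve. Its log2 levels were 7.62, 8.13 and 8.05 in knockout tumours, against 7.22, 6.81 and 6.94 in wild type tumours. The groups did not overlap, and the closest values were those of replicate 1 in each group. The means were 7.93 ± 0.28 in knockout and 6.99 ± 0.21 in wild type tumours (SD, n = 3 each). The log2 change was 0.94 (SE 0.16, 95% confidence interval 0.56 to 1.33, limma adjusted p = 0.0948). The gene thus missed the adjusted threshold of 0.05. It lay under an adjusted p of 0.1 together with Col5a2, as did 0.591% of all genes, 0.307% higher and 0.284% lower in knockout tumours.

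Col12a1, a fibril-associated collagen that lies on the surface of type I fibrils, had log2 levels of 8.52, 9.06 and 9.01 in knockout tumours and 8.36, 8.65 and 7.85 in wild type tumours. Knockout replicate 1 lay below wild type replicate 2, and the log2 change was 0.58 (SE 0.22, limma adjusted p = 0.322). It was 0.36 without wild type replicate 3 (limma adjusted p = 0.397). Col23a1, a collagen with a membrane-spanning segment, had levels of 7.51, 7.32 and 7.60 in knockout tumours, against 7.72, 8.09 and 8.15 in wild type tumours. All knockout values of Col23a1 lay below the wild type ones, with a log2 change of -0.51 (SE 0.14, 95% confidence interval -0.84 to -0.19, limma adjusted p = 0.192).

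Type VI collagen forms beaded microfibrils around cells. Col6a1 had log2 levels of 8.34, 8.47 and 8.34 in knockout tumours and 8.98, 8.37 and 8.97 in wild type tumours. Wild type replicate 2 lay among the knockout tumours, the other wild type tumours above them, and the log2 change was -0.39 (SE 0.17, limma adjusted p = 0.359). It was -0.59 without wild type replicate 2 (limma adjusted p = 0.183). Its neighbour and partner chain Col6a2 had levels of 7.54, 7.64 and 7.53 in knockout tumours and 7.55, 7.31 and 7.57 in wild type tumours, with a log2 change of 0.09. The level of Col6a1 minus that of Col6a2 lay between 0.81 and 0.83 in knockout tumours and between 1.06 and 1.43 in wild type tumours, a difference of -0.48 with no overlap (exact permutation p = 0.1, adjusted p = 0.117 over the 7 pairs). Of the 7 pairs, 6 reached this smallest p, and Col4a3 with Col4a4 did not. Each of those 6 pairs held a chain with an unadjusted p under 0.05, and Col4a3 with Col4a4 held none. The count thus follows in large part from the choice of pairs, and Col5a2 entered several of them. Col6a3, the large chain of the trimer, had a log2 change of 0.11, and Col6a4, Col6a5 and Col6a6 lay between -0.03 and 0.05.

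The fibril-associated collagens Col20a1 and Col9a3 split the wild type tumours. Col20a1 had log2 levels of 7.04, 7.19 and 7.34 in knockout tumours and 8.55, 8.31 and 7.04 in wild type tumours. Col9a3, a chain of type IX collagen, had levels of 8.92, 9.04 and 8.96 in knockout tumours and 9.59, 9.74 and 8.92 in wild type tumours. In both genes wild type replicates 1 and 2 were above all knockout tumours, and wild type replicate 3 was level with the lowest knockout tumour. With all arrays the log2 changes were -0.78 (SE 0.35) for Col20a1 and -0.44 (SE 0.20) for Col9a3, each with a limma adjusted p of 0.382. Without wild type replicate 3 the log2 change of Col20a1 was -1.24 and passed the threshold (limma adjusted p = 0.0271). It was -0.49 without wild type replicate 1 (limma adjusted p = 0.634) and -0.60 when wild type replicate 2 was left out (limma adjusted p = 0.679).

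Col8a1, a short-chain collagen of vessel walls, and the fibril-associated Col16a1 and Col22a1 also had groups that did not overlap, with every knockout value below the wild type ones by a small step. Their log2 changes were -0.21, -0.15 and -0.12, each with an unadjusted p above 0.05. The other 11 genes in the group shown as other, among them the anchoring fibril gene Col7a1, the transmembrane collagens Col13a1, Col17a1 and Col25a1 and the fibril-associated Col14a1 and Col19a1, had overlapping groups, with log2 changes from -0.26 for Col9a1 to 0.20 for Col25a1.

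Col1a2, Col5a1 and Col6a1 were the 3 collagens with a second feature of their symbol alone. The second features were dimmer, with group means of 6.10 and 6.18 for Col1a2, 6.55 and 6.69 for Col5a1 and 6.41 and 6.59 for Col6a1 in knockout and wild type tumours. The sign differed from that of the brighter feature for Col1a2 (-0.08) and Col5a1 (-0.14) and was the same for Col6a1 (-0.18). None of these features passed over all features (adjusted p from 0.62 to 0.87).

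Averaged over their members, the classes moved by 0.22 or less in any tumour, as deviations on the log2 scale. The mean deviation of the 8 basement membrane collagens from each gene's mean over all arrays was 0.17, 0.11 and 0.021 in knockout tumours and -0.21, -0.11 and 0.017 in wild type tumours. Wild type replicate 3 lay just below knockout replicate 3. For the 11 fibrillar collagens the deviation was 0.07, 0.02 and 0.08 in knockout tumours and -0.15, 0.0073 and -0.03 in wild type tumours. The groups did not overlap in either class, by narrow margins. Among single genes 19.6% of all had groups that did not overlap, a share that was not computed for class averages. The basement membrane average includes Col4a1, Col4a2 and the X-linked Col4a5, with log2 changes of 0.63, 0.39 and 0.66. No separation of that class was shown without them. The fibrillar average includes Col5a2, whose log2 change was 1.11, and no separation of that class was shown without it. For the 9 fibril-associated collagens the deviation was -0.22, -0.04 and 0.04 in knockout tumours and 0.15, 0.18 and -0.11 in wild type tumours, which overlap. The groups also overlapped in the beaded filament, transmembrane and remaining classes.

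**Figure D3:**
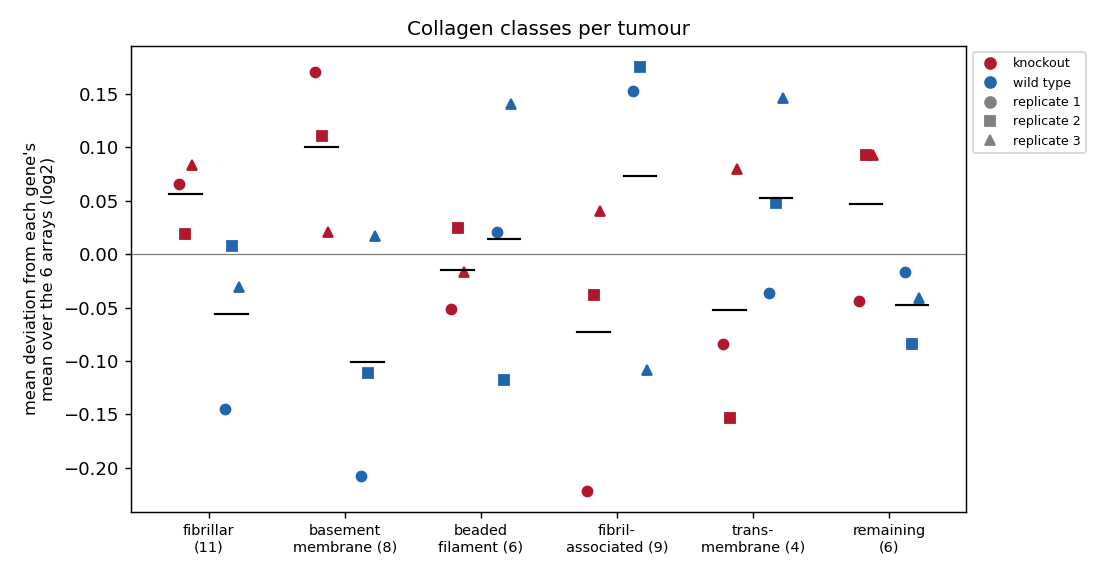
Mean deviation of each collagen class from its genes' means over the 6 arrays (log2, y axis), per tumour, with the number of genes in parentheses and black lines at the group means. The basement membrane class runs from 0.17 to 0.021 in knockout tumours and from 0.017 to -0.21 in wild type tumours.

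Genes that make, bind and remove collagen were examined from 5 lists with 65 genes, of which 60 were measured under a single symbol. By limma 0 of the 60 passed an adjusted p of 0.05. At an unadjusted p under 0.05, 7 were higher and 7 lower in knockout tumours, 23.3% of the 60, against 13.8% of all genes. Groups did not overlap for 8 genes that were higher and 7 that were lower, 25% of the 60, against 19.6% of all genes. The median log2 change of the 60 genes was 0.10, against 0.0039 over all genes.

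In the folding and modification list, 15 of 17 genes had positive changes, with a median of 0.14, while 11290 of all 22180 genes had positive changes. At an unadjusted p under 0.05, 2 of the 17 were higher, 11.8%, against 13.8% of all genes in either direction. Groups did not overlap for 3 of the 17, 17.6%, against 19.6% of all genes. Serpinh1 encodes the chaperone of the procollagen triple helix. Its log2 levels were 10.22, 9.96 and 9.92 in knockout tumours, against 8.65, 9.28 and 9.34 in wild type tumours, with no overlap and a log2 change of 0.95 (SE 0.19, limma adjusted p = 0.121). P4ha3, a catalytic subunit of prolyl 4-hydroxylase, which hydroxylates collagen prolines, had levels of 7.30, 7.28 and 7.05 in knockout tumours and 6.68, 6.67 and 6.79 in wild type tumours. Its log2 change was 0.50 (SE 0.10, limma adjusted p = 0.129), again with no overlap.

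In the trimming and cross-linking list, 8 of 12 genes had positive changes, with a median of 0.12. Tll1, a protease of the tolloid family that removes procollagen propeptides, had log2 levels of 8.69, 8.29 and 8.61 in knockout tumours and 8.10, 7.73 and 8.03 in wild type tumours, with a log2 change of 0.57 (SE 0.14, limma adjusted p = 0.182). The propeptidase gene Adamts3, with the next smallest p of this list, had a log2 change of 0.17 (limma adjusted p = 0.611). Of the 12 collagen-binding matrix genes, 7 had positive changes, with a median of 0.11. The small proteoglycans Lum and Fmod, which bind fibrils, had log2 changes of 0.56 (SE 0.21) and 0.38 (SE 0.16), and wild type replicate 3 lay close to the knockout tumours in both.

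Collagen receptors had changes in both directions, 5 positive and 4 negative. Ddr1, a collagen-binding receptor tyrosine kinase, had log2 levels of 9.74, 9.91 and 9.57 in knockout tumours and 10.18, 10.26 and 10.02 in wild type tumours, with a log2 change of -0.42 (SE 0.12, limma adjusted p = 0.211). Lair1, an inhibitory collagen receptor of immune cells, had a log2 change of -0.40 (SE 0.13, limma adjusted p = 0.242), also without overlap. The related Ddr2, which was chosen after its values were seen, had a log2 change of 0.37 (SE 0.13).

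In the degradation list the gelatinases, proteases that cut denatured collagen and type IV collagen, had the smallest p-values. Mmp2 had log2 levels of 8.58, 8.45 and 8.59 in knockout tumours, against 9.45, 9.71 and 9.13 in wild type tumours, with a log2 change of -0.89 (SE 0.15, limma adjusted p = 0.0816). Mmp9 had levels of 6.31, 6.51 and 6.31 in knockout tumours and 7.14, 6.85 and 6.88 in wild type tumours, with a log2 change of -0.58 (SE 0.11, limma adjusted p = 0.119). Neither gene's groups overlapped. Further genes of this list, chosen after their values were seen, also had groups that did not overlap. They were the inhibitors Timp1 (-0.90, SE 0.22) and Timp2 (-0.54, SE 0.15), and the membrane-bound Mmp14 (0.71, SE 0.18), which activates the Mmp2 protein. The list as a whole had 6 positive and 4 negative changes and a median of 0.04. Timp1 is X-linked.

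**Figure D4:**
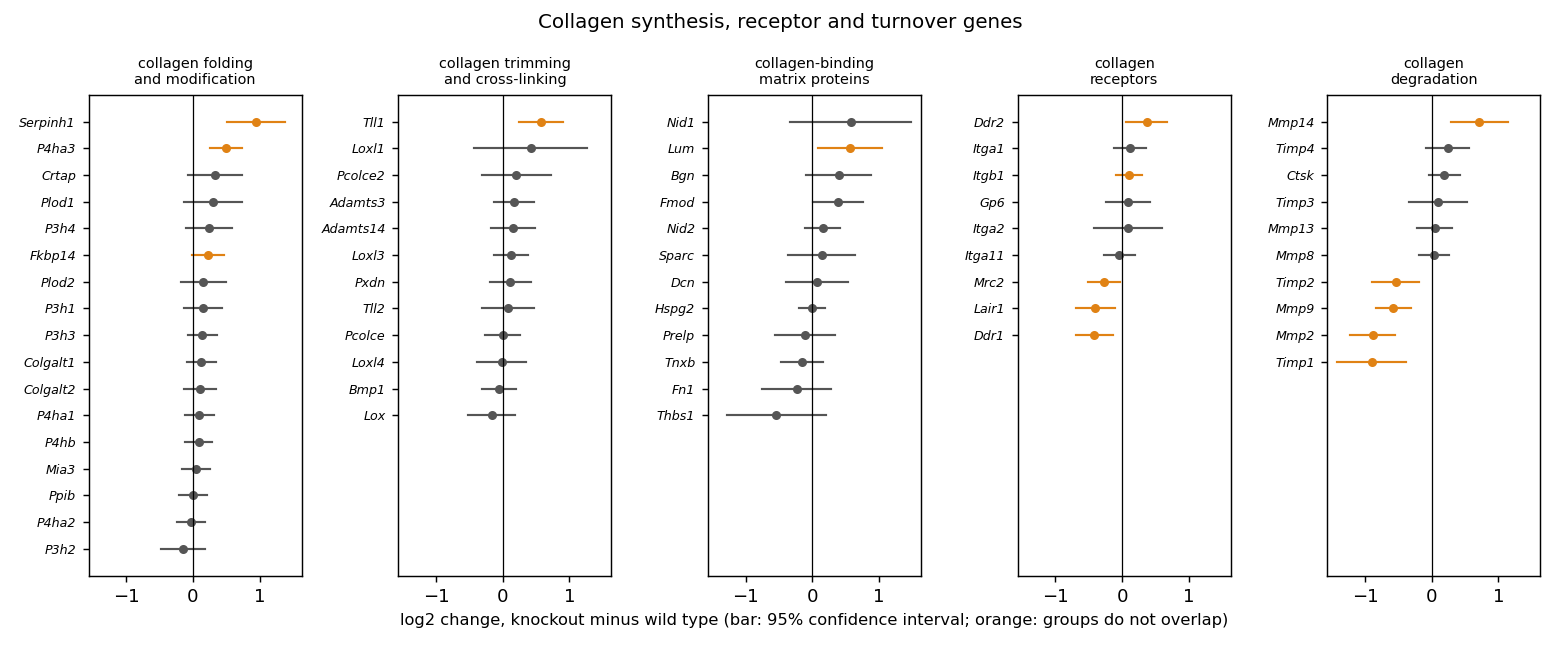
Log2 change (knockout minus wild type, x axis) with 95% confidence interval for the 60 measured genes of 5 lists of collagen synthesis, binding and turnover. Orange marks the 15 genes whose groups do not overlap, with Serpinh1 at 0.95 and Mmp2 at -0.89; 0 genes passed the adjusted threshold.

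Markers of the cell types that make collagen were measured beside these results, and their part in them was not tested. Endothelial markers (12 of 12 measured, 7 with positive changes) had a mean log2 level of 7.30 to 7.56 in knockout and 7.27 to 7.47 in wild type tumours. Markers of pericytes and smooth muscle (11 of 11 measured, 6 with positive changes) had a mean level of 7.86 to 8.09 in knockout and 7.89 to 7.94 in wild type tumours. Fibroblast and meningeal markers (14 of 14 measured, 7 with positive changes) had a mean level of 7.26 to 7.48 in knockout and 7.09 to 7.79 in wild type tumours. The groups overlapped in each of these lists, and 0 members passed the adjusted threshold by limma. At an unadjusted p under 0.05, 2 endothelial markers were higher, 2 pericyte and smooth muscle markers were higher and 3 lower, and 4 fibroblast and meningeal markers were higher and 2 lower in knockout tumours. These are 16.7% of the endothelial, 45.5% of the pericyte and smooth muscle and 42.9% of the fibroblast and meningeal markers, against 13.8% of all genes. Lum and Fmod belong both to this last list and to the matrix list. Values on this scale do not reach 0, so no marker could be called absent.

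Knockout replicate 1 held the highest values of Col5a2, Col1a1, Col1a2, Col3a1, Col4a1, Col4a2 and Col4a5, among others. It also had the highest mean level of endothelial markers (7.56) and of pericyte and smooth muscle markers (8.09). Without this array the log2 change of Col5a2 was 1.01 and its call was lost (limma adjusted p = 0.0659). The call was also lost without knockout replicate 3, wild type replicate 1 or wild type replicate 2 (limma adjusted p = 0.137, 0.103 and 0.106). The part of vessel cells in the Col5a2 change was not tested. Wild type replicate 3, which stood apart in Col20a1 and Col9a3, had the highest fibroblast and meningeal mean (7.79), with the meningeal gene Aldh1a2 at 9.95, against 8.16 and 7.57 in the other wild type tumours. This list was mixed, with 7 positive and 7 negative changes. Its gene Igf2 was at 9.50 to 10.59 in knockout and 8.41 to 8.75 in wild type tumours (limma adjusted p = 0.107). Foxc1 of the same list went the other way, at 6.94 to 7.03 in knockout and 7.24 to 7.73 in wild type tumours (limma adjusted p = 0.232). In wild type replicate 3 the astrocyte and Bergmann glia markers (9 of 9 measured) had a mean of 10.25, against 9.54 and 9.49 in wild type replicates 1 and 2, and 10.09 to 10.24 in knockout tumours. Choroid plexus markers (7 of 7 measured) had a mean level of 7.46 to 7.69 in knockout tumours and 9.12, 7.86 and 7.52 in wild type tumours, with the transthyretin gene Ttr at 13.52 in wild type replicate 1.

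**Figure D5:**
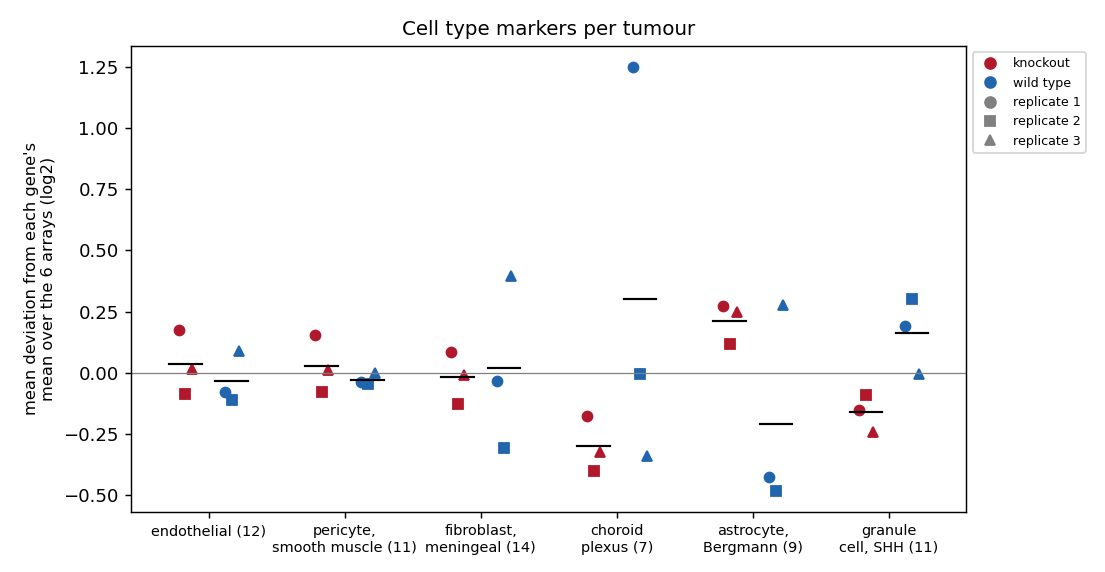
Mean deviation of 6 marker lists from their genes' means over the 6 arrays (log2, y axis), per tumour, with the number of measured genes in parentheses and black lines at the group means. Knockout replicate 1 is highest for endothelial markers, wild type replicate 1 for choroid plexus markers and wild type replicate 3 for fibroblast and meningeal markers.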

How the data were processed

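Log2 values were deposited by the authors after RMA, run with oligo according to the submitters' processing notes. Neither versions nor a genome build were found in those notes. RMA subtracts background, gives all arrays 1 distribution and combines probes, which would hide a shift common to most genes. Of 41345 features, 23521 had 1 gene symbol in the platform annotation, 1814 several and 16010 were unnamed here, and 99.2% of the first matched a RefSeq identifier (GRCm38.p6, used for names and chromosomes). Testing used these values unchanged, by lmFit and eBayes of limma 3.58.1 under R 4.3.3 (two-sided), with Benjamini-Hochberg adjustment over 22180 genes and a threshold of 0.05. The fit was checked on simulated data. Replicate numbers come from the titles. The number of arrays limits the precision.

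Members and lists were chosen with earlier results of these data known. Values in every array were given for collagens with an unadjusted p under 0.05, for neighbouring collagen pairs and for type I collagen, and 2 pathway genes per list with the smallest p were named. Other genes named with all values were chosen after those were seen. List genes without a feature of their own symbol were not analysed here. Alternatives covered the variance model, array weights, scaling, dim genes, features per gene, a replicate block, the threshold and each array left out, and a fit without X and Y genes was chosen after seeing the data.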

Additional observations from a re-analysis of the deposited data

How the results depend on the processing

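Col5a2 remained the one collagen past the threshold with a variance trend, robust variances, array weights, both rescalings, both filters on dim genes, other features per gene and without X and Y genes. With a replicate block 0 collagens passed (Col5a2 adjusted p = 0.0737). The numbers were not taken as pairs, since the correlations over genes of same-numbered tumours' deviations from their group means were -0.03, 0.05 and 0.10, and knockout replicates 1 and 2 each correlated better with another number than with their own. Leaving out single tumours gave 0 to 2 collagens and 4 to 128 of all genes, against 1 and 46 with all arrays. At an adjusted p of 0.1 the numbers were 2 collagens and 131 genes. All genes past the threshold numbered 107 with a variance trend, 12 with a replicate block and 77 after removal of the dimmest 25%. Of the pathway genes, 1 passed, lower in knockout tumours, with a variance trend, with array weights and at an adjusted p of 0.1, and leaving out single tumours gave 0 to 1. Without the dimmest 50% of genes the class medians were 0.51 for basement membrane, -0.11 for other and 0.056 for all collagens. Only 2, 9 and 19 genes entered these medians. With single tumours left out the medians ran from -0.018 to 0.074 for fibrillar, 0.056 to 0.27 for basement membrane, -0.11 to 0.00043 for other and -0.040 to 0.037 for all collagens. The 9 collagens with an unadjusted p under 0.05 and Col20a1 kept their sign under the alternatives run for each, which for Col4a5 left out the removal of the dimmest 50% of genes and of X and Y genes. The cause of these shifts was not tested.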
